A study of Mus musculus with 6 samples.

Results

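C1q-positive macrophages were taken from single-cell RNA sequencing of mouse lung by their UMIs of C1qa, C1qb and C1qc, the genes of the 3 chains of complement protein C1q. A unique molecular identifier (UMI) stands for 1 captured RNA molecule, and a barcode for 1 cell. A barcode was kept if it held 500 UMIs or more, 300 genes or more and a mitochondrial share below 20% of its UMIs. A kept cell was a member when it held at least 4 UMIs of the 3 genes together, with at least 2 of the 3 detected. It also had to hold fewer than 2 of 10 alveolar macrophage genes (Marco, Ctsk, Atp6v0d2, Siglecf, Ear1, Ear2, Plet1, Cidec, Krt79, Slc39a2) and 0 UMIs of the T cell gene Cd3e, the B cell gene Cd79a and the endothelial gene Cdh5. The rule found 2048 of 76800 kept cells. The cells were chosen by these measured counts, which are therefore described and not tested. The study set 3 groups of 2 male C57BL/6J mice aged 12 weeks beside each other, with 1 library a mouse and lungs taken on day 3. SLC+LPS mice had SLC activation 7 times together with lipopolysaccharide (LPS) at 1 mg/kg, LPS mice had LPS at 1 mg/kg alone, and PBS mice had phosphate-buffered saline. The title of the series names the subcoeruleus nucleus, a brainstem nucleus, and the sympathetic nerve, and the labels write the activation as SLC-Gq. The labels give neither the route of LPS nor whether LPS and PBS mice carried the means of activation.

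Interstitial macrophages live in the tissue of the lung, around vessels, airways and nerves, whereas alveolar macrophages live in the air spaces. C1q is the recognition part of the classical complement pathway, it binds immune complexes and dying cells, and tissue macrophages are a main source of it. In mouse lung a pair of kinds is usually told apart. One is rich in Lyve1, Folr2, Cd163 and Timd4 and poor in MHC class II, the other is poor in Lyve1 and rich in MHC class II, Ccr2 and Cx3cr1. LPS, a part of the bacterial outer membrane, draws neutrophils and Ly6c2-positive monocytes into the lung, and such monocytes can become macrophages.

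Promoters are shown for 4 genes on which the account turns: 2 of the C1q genes that define the cells, the receptor gene Cd163, which fell, and the acute phase gene Saa3, which rose. Each stretch runs 5′ to 3′ from 250 bases before to 50 bases after the gene's start, from RefSeq on build GRCm38.p6. Of 5 genes sought, 4 were matched, and C1qa is named only. Capitals mark matches on either strand to the ETS core that PU.1 binds (GAGGAA), the MAF site (TGCTGA) and the C/EBP site (TTNNGNAA). C1qb and C1qc lie beside each other on the minus strand of chromosome 4, Cd163 on the plus strand of chromosome 6 and Saa3 on the minus strand of chromosome 7.
C1qb, chr4:136886151-136886450: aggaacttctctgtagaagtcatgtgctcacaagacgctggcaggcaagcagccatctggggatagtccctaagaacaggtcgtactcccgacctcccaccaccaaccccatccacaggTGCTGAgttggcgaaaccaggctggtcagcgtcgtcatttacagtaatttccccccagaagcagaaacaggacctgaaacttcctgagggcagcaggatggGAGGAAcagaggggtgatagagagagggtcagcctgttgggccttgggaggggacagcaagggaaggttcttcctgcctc
C1qc, chr4:136892865-136893164: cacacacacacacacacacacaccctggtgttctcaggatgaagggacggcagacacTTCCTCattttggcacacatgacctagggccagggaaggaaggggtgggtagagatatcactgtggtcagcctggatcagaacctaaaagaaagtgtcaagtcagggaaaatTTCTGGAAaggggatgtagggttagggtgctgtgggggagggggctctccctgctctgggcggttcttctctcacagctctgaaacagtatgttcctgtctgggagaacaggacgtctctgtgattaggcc
Cd163, chr6:124304401-124304700: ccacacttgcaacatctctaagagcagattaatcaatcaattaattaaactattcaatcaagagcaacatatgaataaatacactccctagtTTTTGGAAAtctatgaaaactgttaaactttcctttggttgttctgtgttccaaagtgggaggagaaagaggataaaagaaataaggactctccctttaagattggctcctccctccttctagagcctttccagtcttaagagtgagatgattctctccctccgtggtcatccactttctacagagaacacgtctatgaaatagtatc
Saa3, chr7:46715627-46715926: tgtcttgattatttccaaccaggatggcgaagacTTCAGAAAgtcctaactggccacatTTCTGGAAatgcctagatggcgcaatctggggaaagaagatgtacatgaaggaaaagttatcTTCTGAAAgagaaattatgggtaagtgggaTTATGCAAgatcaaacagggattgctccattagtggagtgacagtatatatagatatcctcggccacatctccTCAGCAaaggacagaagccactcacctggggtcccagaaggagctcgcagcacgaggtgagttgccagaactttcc
The C1qb stretch held 1 ETS core and 1 MAF site, and the C1qc stretch held 1 ETS core and 1 C/EBP site. Saa3 held 4 C/EBP sites and 1 MAF site. In Cd163 the capitals cover 2 overlapping C/EBP matches. Among 32851 promoters of this length, 28.3% held the ETS core, 19.5% the MAF site and 40.7% the C/EBP site, so single matches are common, and they describe letters and no binding.

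The 6 libraries held 31589233 to 48641470 UMIs, with 11608 to 13710 kept cells each and a median of 1134 to 2606 UMIs per kept cell. Median mitochondrial shares were 1.23% to 2.86% in the 4 treated libraries and 8.82% and 7.99% in the PBS libraries. No barcode was a member in 2 libraries, and for each pair of libraries 0 or 1 member shared its barcode with a kept cell of the other. MHC class II genes split the mice of each treated group. H2-Aa, a class II chain, stood at 711 and 5843 CPM (counts per 1000000 UMIs of the members in a library) in SLC+LPS mice 1 and 2, at 5879 and 1218 CPM in LPS mice 1 and 2, and at 7006 and 6847 CPM in PBS mice. SLC+LPS mouse 1 and LPS mouse 2 were thus low, and the other treated mice stood near PBS. The same mice were low in alveolar macrophages, where H2-Aa stood at 212 and 2280 CPM in SLC+LPS mice, 2078 and 212 CPM in LPS mice and 1723 and 2180 CPM in PBS mice. An interferon-stimulated gene was split in another way. Iigp1, an interferon-induced GTPase, stood at 39.5 and 75.4 CPM in SLC+LPS mice, 64.99 and 199 CPM in LPS mice and 12.8 and 5.59 CPM in PBS mice, so SLC+LPS mouse 1 was the lowest treated mouse and LPS mouse 2 the highest. Whether a batch or exchanged samples have a part in these splits cannot be told apart from the labels, and this doubt touches every value of SLC+LPS against LPS.

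**Figure D1:**
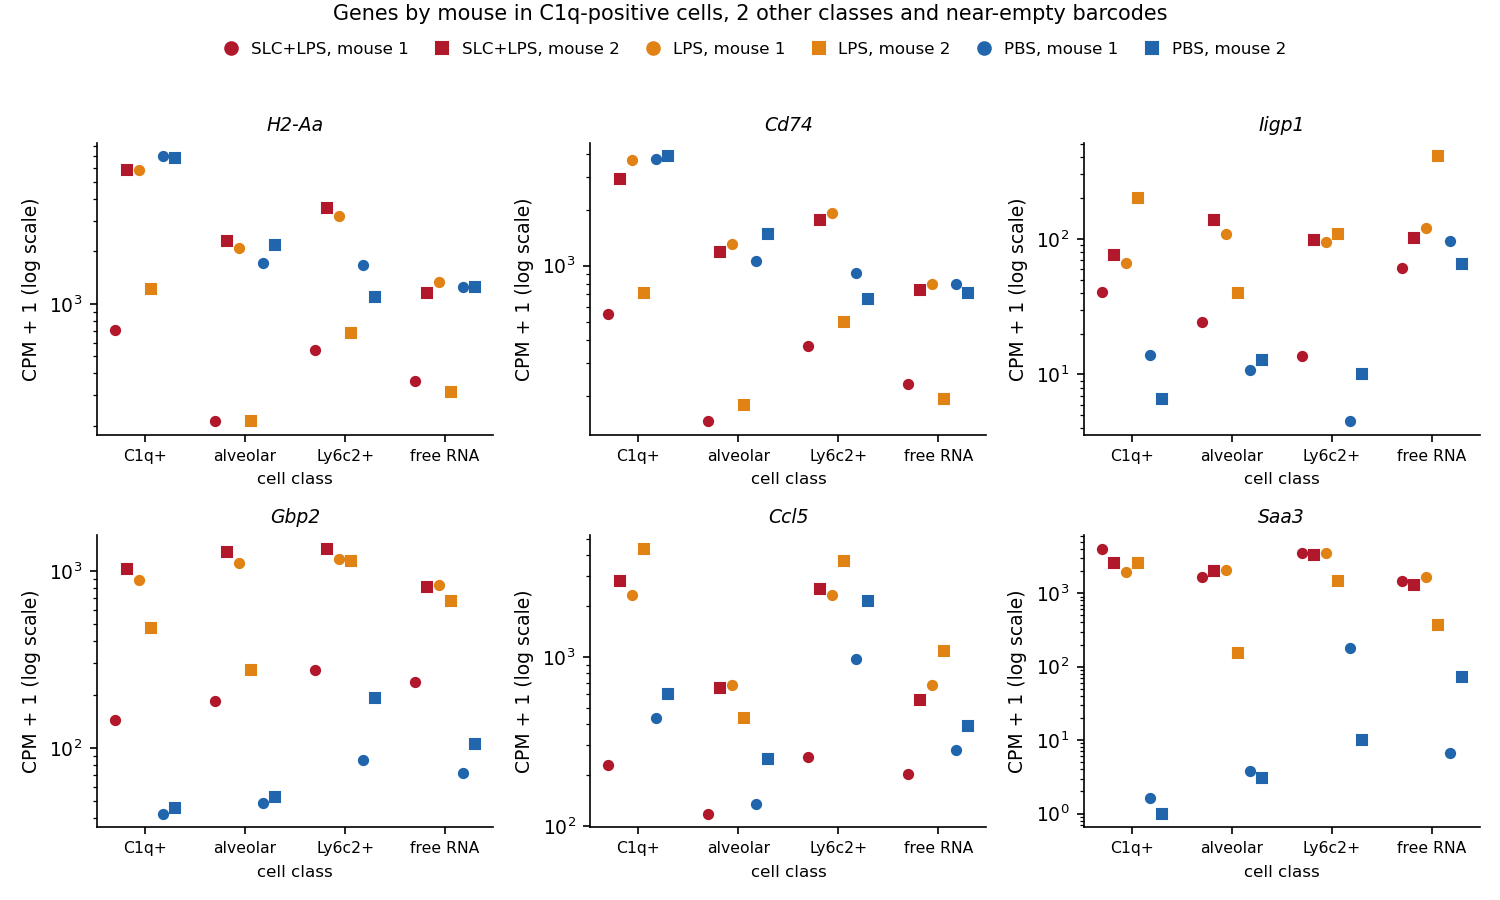
CPM plus 1 of H2-Aa, Cd74, Iigp1, Gbp2, Ccl5 and Saa3 on a log scale in C1q-positive cells, alveolar macrophages, Ly6c2-positive cells and free RNA (barcodes with at least 10 and under 100 UMIs), 1 point a mouse. H2-Aa and Cd74 are lower in SLC+LPS mouse 1 and LPS mouse 2 than in the other treated mice in all 4 kinds of RNA, and Saa3 in C1q-positive cells stands at 1916 to 4055 CPM in the treated mice and at 0.612 and 0 CPM in the PBS mice.

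The members carried macrophage genes in every mouse. At least 2 of a set of general macrophage genes, among them Csf1r, Adgre1, Ms4a7, Cx3cr1 and Mertk, were detected in 98.8% and 95.6% of members from SLC+LPS mice, 96.2% and 99.2% from LPS mice and 98.7% and 97.2% from PBS mice, at a median of 2942 to 8802 UMIs a cell. In B and T cells, which should lack these genes, the shares were 7.95% and 12.6%, 13% and 3.57%, and 2.99% and 3.90% in the same order, at a median of 1249.5 to 2043 UMIs. Csf1r, the receptor for the growth factor that macrophages need, stood at 1808 and 850 CPM in SLC+LPS mice, 1082 and 1414 CPM in LPS mice and 1716 and 2677 CPM in PBS mice. SLC+LPS mouse 1 lay within the PBS range, and the other treated mice lay below it. Csf1r was called in neither comparison with PBS. The label of interstitial macrophages was borne out in PBS mice by both the Lyve1-side and the class II genes. In treated mice the Lyve1 side was rare and genes of recruited monocytes were high, as given further on, so the cells are called C1q-positive macrophages here, and digestion left no record of where in the lung they lay.

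Cells that should lack C1q also passed its threshold. Of B cells, 2.52% and 2.96% passed it in SLC+LPS mice, 3.32% and 1.15% in LPS mice and 1.76% and 1.49% in PBS mice. Among cells with at least 2 Ly6c2 UMIs the shares past it were 8.97% and 9.85% in SLC+LPS mice, 12.2% and 4.94% in LPS mice and 0.471% and 0% in PBS mice. Those past it met the whole rule, so they were members. They were 105 of the 246 and 332 of the 367 members in SLC+LPS mice. In LPS mice they were 305 of 416 and 125 of 249, and in PBS mice 2 of 382 and 0 of 388. Whether they made C1q or held it as free RNA was not tested. From 18 genes of epithelial cells, fibroblasts, B cells and red blood cells, free RNA was estimated as a share of the members' RNA. It came to 10.9% and 23.4% in SLC+LPS mice, 17.7% and 4.79% in LPS mice and 22.4% and 28.9% in PBS mice. The estimate counts all RNA of these 18 genes as free RNA, and the estimates for single genes given further on rest on it. Just outside the rule stood cells with 3 C1q UMIs, numbering 15 and 38 in SLC+LPS mice, 46 and 12 in LPS mice and 13 and 18 in PBS mice. Just inside it, cells with 4 C1q UMIs numbered 17 and 44, 39 and 11, and 14 and 22 in the same order.

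C1q-positive macrophages made up 1.83% (exact 95% binomial interval 1.61% to 2.07%) and 2.84% (2.56% to 3.14%) of kept cells in SLC+LPS mice. They made up 3.03% (2.75% to 3.34%) and 2.15% (1.89% to 2.43%) in LPS mice and 3.01% (2.72% to 3.33%) and 3.12% (2.82% to 3.44%) in PBS mice. Group means were 2.33% ± 0.710 in SLC+LPS mice, 2.59% ± 0.629 in LPS mice and 3.07% ± 0.0733 in PBS mice (SD, n = 2 each). Both SLC+LPS mice lay below both PBS mice, and 1 LPS mouse lay within the PBS range. The log2 ratio was -0.39 for SLC+LPS over PBS (two-sided exact permutation p = 0.333) and -0.24 for LPS over PBS (exact permutation p = 0.667). For SLC+LPS over LPS it was -0.15 (exact permutation p = 0.667), and 0.333 is the smallest p that 2 mice against 2 allow. Depth differed between the groups, since members had a median of 6992 and 4952 UMIs in SLC+LPS mice, 6350.5 and 8802 in LPS mice and 4000 and 2942 in PBS mice. With every kept cell thinned to 500 UMIs, the shares were 0.164% and 0.209% in SLC+LPS mice, 0.284% and 0.0948% in LPS mice and 0.434% and 0.434% in PBS mice, so that all 4 treated mice lay below both PBS mice (exact permutation p = 0.333 for either comparison). The direction turned on how cells with at least 2 of 5 neutrophil genes were treated. Such cells were 58.9% and 86.1% of members in SLC+LPS mice, 83.2% and 51.0% in LPS mice and 15.7% and 8.51% in PBS mice. With such cells left out of members and kept cells alike, the shares were 2.19% and 1.20% in SLC+LPS mice, 1.45% and 2.20% in LPS mice and 3.38% and 3.55% in PBS mice (log2 -1.03 for SLC+LPS over PBS, -0.92 for LPS over PBS). With such cells left out of the denominator alone, the members came to 5.33% and 8.65% of it in SLC+LPS mice, 8.61% and 4.50% in LPS mice and 4.01% and 3.88% in PBS mice, and both log2 ratios against PBS were positive (0.83 for SLC+LPS, 0.73 for LPS).

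The C1q levels themselves moved unevenly, and they depend in part on the rule. It asked for a fixed number of C1q UMIs, which is a lower CPM in a deeper cell, and members of treated mice were deeper. C1qc stood at 1276 and 1306 CPM in SLC+LPS mice, 1212 and 976 CPM in LPS mice and 2210 and 1809 CPM in PBS mice, so the treated mice were lower. C1qa, at 116 and 156 CPM, 138 and 54.8 CPM, and 235 and 221 CPM in the same order, was lower as well. C1qb overlapped, with 1216 and 742 CPM in SLC+LPS mice, 1060 and 1009 CPM in LPS mice and 921 and 1560 CPM in PBS mice.

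**Figure D2:**
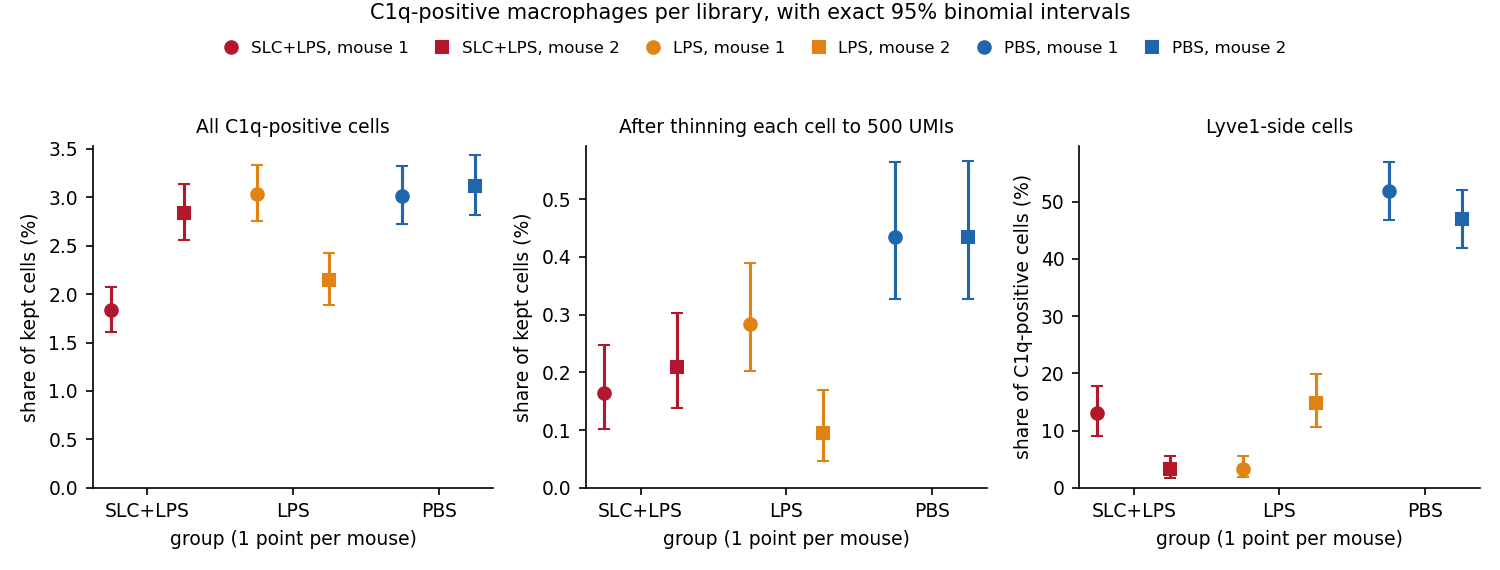
Share of kept cells that were C1q-positive, the same after thinning each cell to 500 UMIs, and share of C1q-positive cells on the Lyve1 side, in percent, 1 point a mouse with its exact 95% binomial interval. The Lyve1-side share is 13% and 3.27% in SLC+LPS mice, 3.37% and 14.9% in LPS mice and 51.8% and 46.9% in PBS mice.

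The make-up of the members differed between treated and PBS mice. Cells of the Lyve1 side, taken as members with at least 2 of Lyve1, Folr2, Cd163 and Timd4 detected, numbered 32 and 12 in SLC+LPS mice, 14 and 37 in LPS mice and 198 and 182 in PBS mice. That is 13% and 3.27% of members in SLC+LPS mice, 3.37% and 14.9% in LPS mice and 51.8% and 46.9% in PBS mice, with no overlap between treated and PBS mice. With each member thinned to 1000 UMIs the shares were 4.90% and 0.820% in SLC+LPS mice, 1.70% and 6.07% in LPS mice and 35% and 29.9% in PBS mice. Per 1000 kept cells there were 2.38 and 0.927 Lyve1-side cells in SLC+LPS mice, 1.02 and 3.19 in LPS mice and 15.6 and 14.6 in PBS mice. The other members numbered 15.9 and 27.4 per 1000 kept cells in SLC+LPS mice, 29.3 and 18.3 in LPS mice and 14.5 and 16.6 in PBS mice. In PBS mice the 2 sides differed in genes that did not define them. H2-Aa stood at 2730 and 3320 CPM in Lyve1-side cells, against 12601 and 10591 CPM in the other members of PBS mice. Ccr2, the receptor that draws monocytes from the blood, stood at 35.6 and 31.0 CPM against 411 and 502 CPM, and Il1b at 627 and 535 CPM against 3003 and 3125 CPM. Mrc1, the mannose receptor, ran the other way at 3125 and 2895 CPM against 1158 and 1105 CPM, and so did the chemokine gene Pf4 at 814 and 594 CPM against 241 and 198 CPM.

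Changes between groups were tested on the members' UMIs summed per mouse, with edgeR's quasi-likelihood test over 9610 genes and Benjamini-Hochberg adjusted p under 0.05 for a call. In such sums, fewer cells of one kind and less RNA per cell cannot be told apart. SLC+LPS against PBS called 487 genes (5.07% of those tested), 218 higher (2.27%) and 269 lower (2.8%). LPS against PBS called 598 genes (6.22%), 278 higher (2.89%) and 320 lower (3.33%). These shares over all tested genes are the measure for the counts of rises and falls given further on. The 2 comparisons share the PBS mice, and 359 genes were called in both, which is 73.7% of the first list and 60.0% of the second. Each call against PBS rests on 2 PBS libraries: without PBS mouse 1 only 2 genes, and without PBS mouse 2 only 1, were called in either comparison, and Saa3 was the gene called under both, although its call was lost among members without a Ly6c2 UMI (edgeR adjusted p = 0.106 in SLC+LPS against PBS and 0.0879 in LPS against PBS). SLC+LPS against PBS called 81 genes without SLC+LPS mouse 2, 1107 without LPS mouse 1 and 1130 without LPS mouse 2. LPS against PBS called 948 genes without LPS mouse 1.

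Of the 16 tested Lyve1-side genes, 4 fell and none rose in SLC+LPS mice, and 7 fell and none rose in LPS mice. Their median log2 fold change was -2.23 and -2.30, beside 0.03 over all genes. Cd163, the receptor that takes up haemoglobin bound to haptoglobin, stood at 120 and 45.9 CPM in SLC+LPS mice, 45.4 and 138 CPM in LPS mice and 1247 and 1302 CPM in PBS mice. Every treated mouse lay far below both PBS mice. Its log2 fold change was -3.91 ± 0.64 (SE) for SLC+LPS over PBS (edgeR adjusted p = 0.0196) and -3.70 ± 0.63 for LPS over PBS (edgeR adjusted p = 0.0224). Cd163 UMIs were found in 14.2% and 3.54% of members in SLC+LPS mice, 3.61% and 12.0% in LPS mice and 59.2% and 63.1% in PBS mice. Folr2, a folate receptor, stood at 134 and 59.1 CPM in SLC+LPS mice, 49.5 and 103 CPM in LPS mice and 541 and 415 CPM in PBS mice, and fell in both comparisons (log2 -2.28 and -2.55). Gas6, a bridge between dying cells and the receptors Axl and Mertk, stood at 20.3 and 8.67 CPM in SLC+LPS mice, 7.39 and 6.04 CPM in LPS mice and 83.2 and 79.9 CPM in PBS mice, again with no overlap. It fell by 2.46 ± 0.39 on the log2 scale in SLC+LPS mice (edgeR adjusted p = 0.0159) and by 3.50 ± 0.41 in LPS mice (edgeR adjusted p = 0.00711). Selenop, which exports selenium, stood at 4250 and 4160 CPM in SLC+LPS mice, 2987 and 3819 CPM in LPS mice and 11614 and 11344 CPM in PBS mice, and fell in both comparisons. Lyve1, a hyaluronan receptor, did not pass at 69.9 and 12.2 CPM in SLC+LPS mice and 22.5 and 94.4 CPM in LPS mice, against 500 and 675 CPM in PBS mice, although the groups did not overlap. Mrc1 passed only in LPS against PBS, with a log2 fold change of -2.31.

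**Figure D3:**
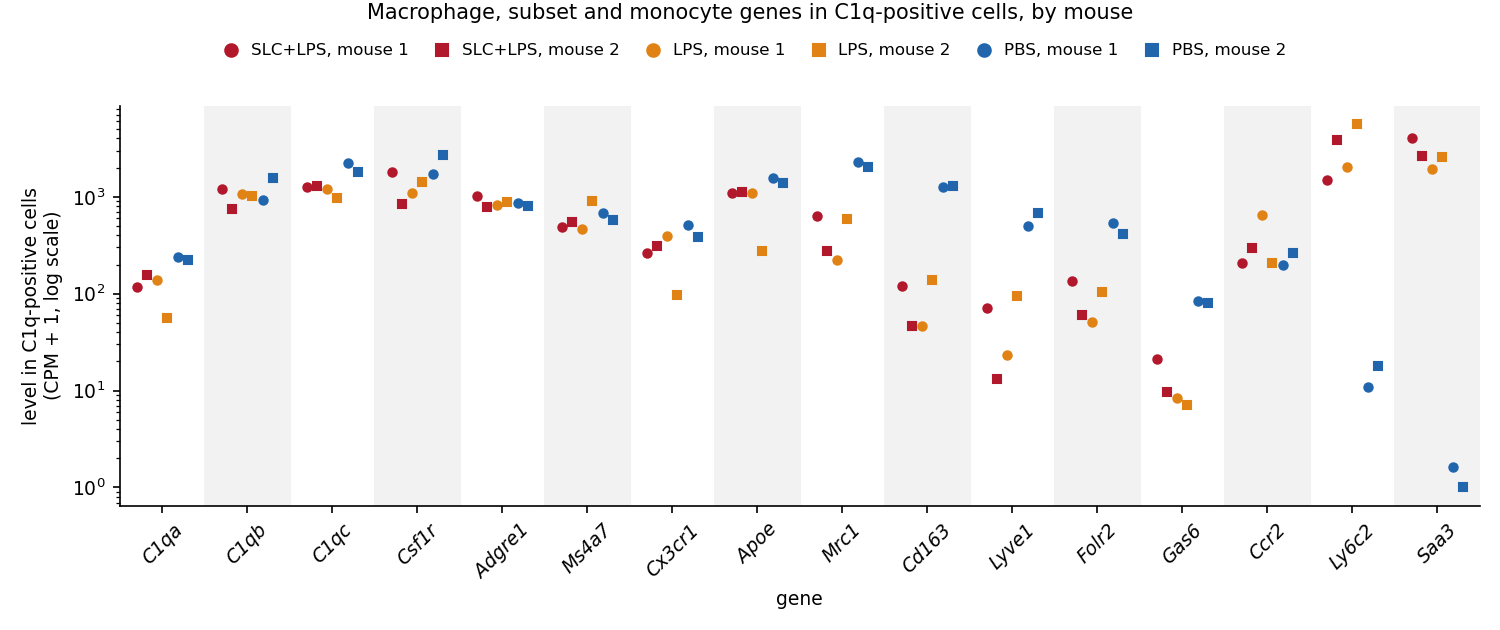
CPM plus 1, on a log scale, of 16 genes in C1q-positive cells, 1 point a mouse. Lyve1, Folr2 and Cd163 lie lower in all 4 treated mice than in both PBS mice (Cd163 at 45.4 to 138 CPM against 1247 and 1302 CPM). Csf1r lies within the PBS range in SLC+LPS mouse 1 and below it in the other treated mice.

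Genes of the class II side varied with the mouse. Of 15 tested, 4 fell in SLC+LPS mice and 3 in LPS mice, none rose, and the medians were -0.99 and -0.72. The class II chains were not among the calls. Tmem176a and Tmem176b, a pair of membrane protein genes of antigen-presenting cells, fell in both comparisons (log2 -2.17 and -2.05 in SLC+LPS mice, -1.95 and -2.21 in LPS mice). Cd83 fell as well, by 1.84 and 1.24 on the log2 scale. Cd86, a costimulatory ligand for T cells, stood at 186 and 231 CPM in SLC+LPS mice, 236 and 358 CPM in LPS mice and 709 and 787 CPM in PBS mice, and passed in SLC+LPS against PBS (log2 -1.78 ± 0.31, edgeR adjusted p = 0.0196).

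The general macrophage genes had medians of 0.17 in SLC+LPS mice and 0.11 in LPS mice, beside 0.03 over all genes. Of 22 tested, none was called in SLC+LPS mice, beside 5.07% of all genes, which does not set the list apart. In LPS mice 3 rose, beside 2.89% of all genes: Fcgr1, a high-affinity antibody receptor (log2 1.98), the actin-binding protein gene Aif1 (1.68) and Cd72 (1.53). None of these 3 was called among members without a Ly6c2 UMI, where the values were 0.80, 1.41 and 1.76. Adgre1, which encodes F4/80, stood at 1028 and 786 CPM in SLC+LPS mice, 816 and 885 CPM in LPS mice and 868 and 799 CPM in PBS mice. It did not pass the test.

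Beyond C1q, 19 complement genes were tested. In both comparisons 1 rose and 2 fell, with medians of -0.16 in SLC+LPS mice and -0.26 in LPS mice. Over all genes 2.27% rose and 2.8% fell in SLC+LPS mice, and 2.89% and 3.33% in LPS mice. Counts this small do not set the list apart. Cd55, which speeds the decay of complement convertases, stood at 10.7 and 9.68 CPM in SLC+LPS mice, 6.65 and 19.8 CPM in LPS mice and 96.0 and 60.7 CPM in PBS mice, with every treated mouse below both PBS mice. It fell by 2.89 on the log2 scale in SLC+LPS mice and by 2.48 in LPS mice. Itgb2, the shared chain of the complement receptors CR3 and CR4, rose by 1.29 and 1.43. The receptors for the split products did not pass: C3ar1 stood at 323 and 471 CPM in SLC+LPS mice, 446 and 686 CPM in LPS mice and 907 and 943 CPM in PBS mice, and C5ar1 at 729 and 1043 CPM, 921 and 915 CPM, and 1725 and 1578 CPM.

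Scavenging genes showed 1 rise and 3 falls of 18 in SLC+LPS mice and 1 rise and 4 falls in LPS mice. Cd163 and Gas6 were among the falls, and so was Pros1, which encodes protein S, a bridge like Gas6 (log2 -1.85 and -1.99). Scarf1, a scavenger receptor gene, rose by 3.66 ± 0.70 in SLC+LPS mice (edgeR adjusted p = 0.0265) and by 3.86 ± 0.69 in LPS mice (edgeR adjusted p = 0.0206). Among members without a Ly6c2 UMI it was not called (log2 2.39 with edgeR adjusted p = 0.444, and 1.59 with edgeR adjusted p = 0.623). Of 11 iron and haem genes, 2 fell in SLC+LPS mice and 5 in LPS mice, with 1 rise in each. Trf, transferrin, fell in both (-1.85 and -2.07). Hmox1, haem oxygenase, stood at 3499 and 1638 CPM in SLC+LPS mice, 1046 and 1582 CPM in LPS mice and 4133 and 6008 CPM in PBS mice, and fell in LPS mice (-1.85). Lcn2, which binds bacterial iron carriers, was the gene that rose in both, and the free RNA estimate came to 65% of its level in the group where it was highest.

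Lipid and lysosome genes leaned upward, with 3 of 21 higher in SLC+LPS mice, 2 in LPS mice and none lower. Over all genes 2.27% and 2.89% were higher, and the medians of the list were 0.70 and 0.52. Fabp5, a fatty acid carrier, stood at 337 and 296 CPM in SLC+LPS mice, 209 and 262 CPM in LPS mice and 28.7 and 27.2 CPM in PBS mice. All treated mice were higher, by 3.55 ± 0.29 on the log2 scale in SLC+LPS mice (edgeR adjusted p = 0.00187) and 3.16 ± 0.28 in LPS mice (edgeR adjusted p = 0.00303). Gpnmb, a lysosomal glycoprotein of lipid-laden macrophages, stood at 445 and 171 CPM in SLC+LPS mice, 233 and 525 CPM in LPS mice and 9.17 and 17.6 CPM in PBS mice (log2 4.58 ± 0.66 with edgeR adjusted p = 0.0139, and 4.94 ± 0.67 with edgeR adjusted p = 0.0111). Alveolar macrophages held more Gpnmb in every mouse, at 969 and 472 CPM, 934 and 1253 CPM, and 143 and 324 CPM in the same order. Both genes were still called among members without a Ly6c2 UMI, with log2 fold changes of 2.12 and 2.81 in SLC+LPS mice and 1.86 and 3.31 in LPS mice.

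**Figure D4:**
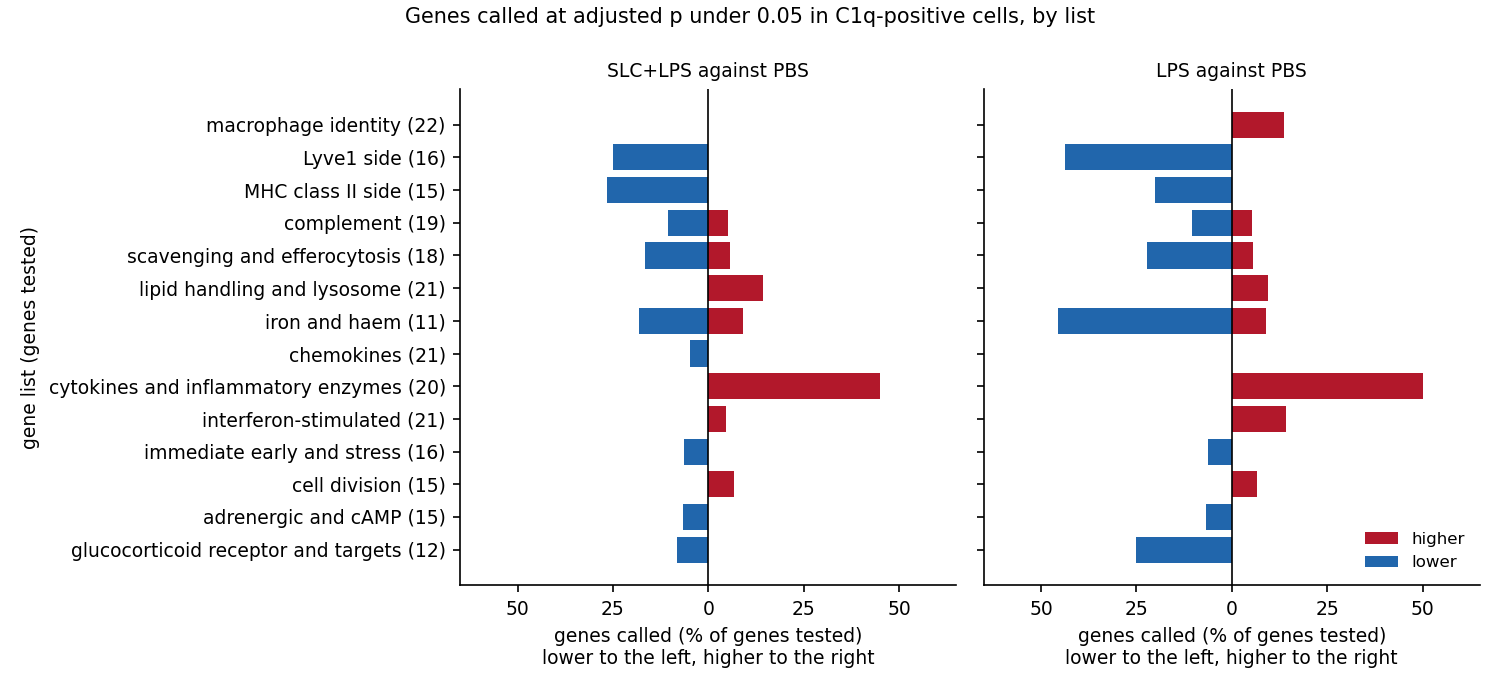
Percent of the tested genes of 14 lists called higher or lower in C1q-positive cells at adjusted p under 0.05, for SLC+LPS against PBS on the left and LPS against PBS on the right. Cytokine genes have 9 of 20 and 10 of 20 higher and none lower, and the Lyve1 side has 4 of 16 and 7 of 16 lower and none higher.

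Of 20 genes of cytokines and inflammatory enzymes, 9 rose in SLC+LPS mice and 10 in LPS mice, none fell, at medians of 1.52 and 2.28. Il1b stood at 4568 and 6252 CPM in SLC+LPS mice, 7891 and 5549 CPM in LPS mice and 1656 and 1791 CPM in PBS mice, higher in every treated mouse (log2 1.71 and 2.04). Its antagonist Il1rn rose with it (1.54 and 2.16). Acod1, which makes itaconate, stood at 708 and 2873 CPM in SLC+LPS mice, 2469 and 2501 CPM in LPS mice and 134 and 104 CPM in PBS mice (3.99 and 4.47). Its level in free RNA was 1984 and 3727 CPM, 3521 and 4516 CPM, and 764 and 772 CPM in the same order, above that of the members in every mouse. These are levels in undiluted free RNA, which was estimated at 4.79% to 28.9% of the members' RNA. The prostaglandin enzyme gene Ptgs2 (1.43 and 2.45) and the matricellular protein gene Thbs1 (2.61 and 2.39) rose in both comparisons. Tnf went the other way without passing the test, at 491 and 945 CPM in SLC+LPS mice, 1162 and 1364 CPM in LPS mice and 1986 and 2322 CPM in PBS mice.

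Some of the steepest rises were in genes that PBS members hardly held. Saa3, an acute phase serum amyloid gene, stood at 4055 and 2609 CPM in SLC+LPS mice, 1916 and 2587 CPM in LPS mice and 0.612 and 0 CPM in PBS mice, where 1 UMI was counted in all. The ratio of summed CPM was 9513 for SLC+LPS over PBS (95% counting interval 1707 to 375781, edgeR adjusted p = 0.000206) and 6426 for LPS over PBS (1153 to 253825, edgeR adjusted p = 0.000273). Arg1, arginase, stood at 756 and 229 CPM in SLC+LPS mice and 140 and 249 CPM in LPS mice, and no UMI was counted in PBS mice. Against a floor of 3 counts over both PBS mice it was at least 461-fold higher in SLC+LPS mice (edgeR adjusted p = 0.00896) and at least 183-fold higher in LPS mice (edgeR adjusted p = 0.0116). Nos2, the inducible nitric oxide synthase, which uses the same arginine, stood at 30.4 and 66.8 CPM in SLC+LPS mice, 105 and 324 CPM in LPS mice and 0 and 0.799 CPM in PBS mice, and rose in both comparisons. Inhba, a chain of activin A, stood at 91.9 and 345 CPM in SLC+LPS mice, 311 and 405 CPM in LPS mice and 3.06 and 5.59 CPM in PBS mice (log2 5.75 ± 0.79 with edgeR adjusted p = 0.0127, and 6.48 ± 0.80 with edgeR adjusted p = 0.00918). Ass1, which remakes arginine from citrulline, stood at 68.8 and 81.6 CPM in SLC+LPS mice, 65.4 and 24.1 CPM in LPS mice and 1.22 and 0 CPM in PBS mice, and its ratio was 109 in SLC+LPS mice (29.9 to 904, edgeR adjusted p = 0.00812).

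Cells outside the rule also held these genes in treated mice. In alveolar macrophages Saa3 stood at 1662 and 2000 CPM in SLC+LPS mice, 2035 and 155 CPM in LPS mice and 2.82 and 2.02 CPM in PBS mice. In free RNA it stood at 1457 and 1297 CPM, 1649 and 367 CPM, and 5.60 and 70.7 CPM in the same order. Inhba in members lay below its level in alveolar macrophages in every mouse, which was 422 and 792 CPM in SLC+LPS mice, 926 and 722 CPM in LPS mice and 19.7 and 9.73 CPM in PBS mice. Arg1 in members exceeded both, except in LPS mouse 1, where alveolar macrophages held 200 CPM against 140 CPM in members. In the group where each gene was highest, the free RNA estimate came to 6.94% of the level of Saa3 and 2.02% of that of Arg1. It came to 5.67% for Nos2, 12.1% for Inhba and 4.56% for Ass1. Beyond this estimate, the part of free RNA in these rises was not tested.

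Genes of recruited monocytes moved strongly with treatment. Of 13 tested, 7 rose in SLC+LPS mice and 9 in LPS mice, none fell, and the medians were 2.61 and 2.85. Summed over the list, members held 8240 and 11802 CPM in SLC+LPS mice, 9389 and 14229 CPM in LPS mice and 1324 and 1436 CPM in PBS mice, with all 13 genes detected in each mouse. Ly6c2 stood at 1486 and 3891 CPM in SLC+LPS mice, 2048 and 5670 CPM in LPS mice and 9.79 and 16.8 CPM in PBS mice (log2 7.75 ± 0.85 with edgeR adjusted p = 0.00812, and 8.30 ± 0.86 with edgeR adjusted p = 0.00684). At least 1 Ly6c2 UMI was found in 64.6% and 97.8% of members in SLC+LPS mice, 87.5% and 57.8% in LPS mice and 3.40% and 5.41% in PBS mice. Alveolar macrophages, which should lack it, had one in 74.1% and 95.4%, 85.8% and 27.3%, and 5.39% and 6.81% of cells in the same order, at median depths of 10481 and 8098, 8476 and 11395, and 4673 and 3819.5 UMIs. The share in members was therefore near or below that of alveolar macrophages in 5 of 6 mice, and above it in LPS mouse 2. Alveolar macrophages are no like background, since they were deeper than members in every mouse. They also held more free RNA by the 18-gene estimate, at 18.1% in LPS mouse 2 and 52.4% to 125% in the other mice. For Ly6c2 the free RNA estimate came to 2.77% of its level in members of LPS mice. The level in members was higher than in alveolar macrophages in all 4 treated mice, which held 1181 and 2292 CPM in SLC+LPS mice and 1591 and 473 CPM in LPS mice. Ly6i, of the same family, stood at 293 and 1555 CPM in SLC+LPS mice, 955 and 1084 CPM in LPS mice and 3.67 and 4.79 CPM in PBS mice, and was lower than in alveolar macrophages in 3 of the 4 treated mice. Fn1, fibronectin, stood at 1771 and 642 CPM in SLC+LPS mice, 619 and 282 CPM in LPS mice and 61.2 and 63.9 CPM in PBS mice, and rose by 4.30 and 2.92. Plac8 and Ms4a4c passed in LPS against PBS (4.72 and 5.45) and not in SLC+LPS against PBS (3.02 and 3.78), and their difference between SLC+LPS and LPS was not called.

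Leaving out members with any Ly6c2 UMI kept 87 and 8 cells of SLC+LPS mice, 52 and 105 of LPS mice and 369 and 367 of PBS mice. With these alone, 33 genes were called in SLC+LPS against PBS and 158 in LPS against PBS. Of the genes followed one by one, 58 were called over all members in SLC+LPS against PBS, of which 13 were still called and 45 lost the call. In LPS against PBS there were 65, of which 31 were still called and 34 lost it. All kept their direction. The call of Cd163 was lost (log2 -3.07 with edgeR adjusted p = 0.306, and -2.92 with edgeR adjusted p = 0.272), and over its alternatives the adjusted p ran from 8.8e-12 to 0.306 and from 2.05e-10 to 0.272. The falls of Retnla (-5.68 and -4.67) and Siglech (-4.41 and -4.42) were still called. Gas6 was called in LPS mice (-2.89) and not in SLC+LPS mice (-2.21). Lost in both comparisons were the calls of Folr2, Selenop, Pla2g2d, Fn1, Scarf1, Cd55, Itgb2, Pros1, Trf, Cd83, Tmem176a, Tmem176b and Saa3. Mrc1 lost its call in LPS against PBS, and Il1b, Nos2, Ass1, Cd209a and Cd86 theirs in SLC+LPS against PBS. Saa3 still had a log2 fold change of 10.28 in SLC+LPS mice and 9.81 in LPS mice, with Folr2 at -1.61 and -1.96 and Selenop at -0.69 and -1.04. The smaller number of cells and their different kind cannot be told apart as the reason for a lost call.

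**Figure D5:**
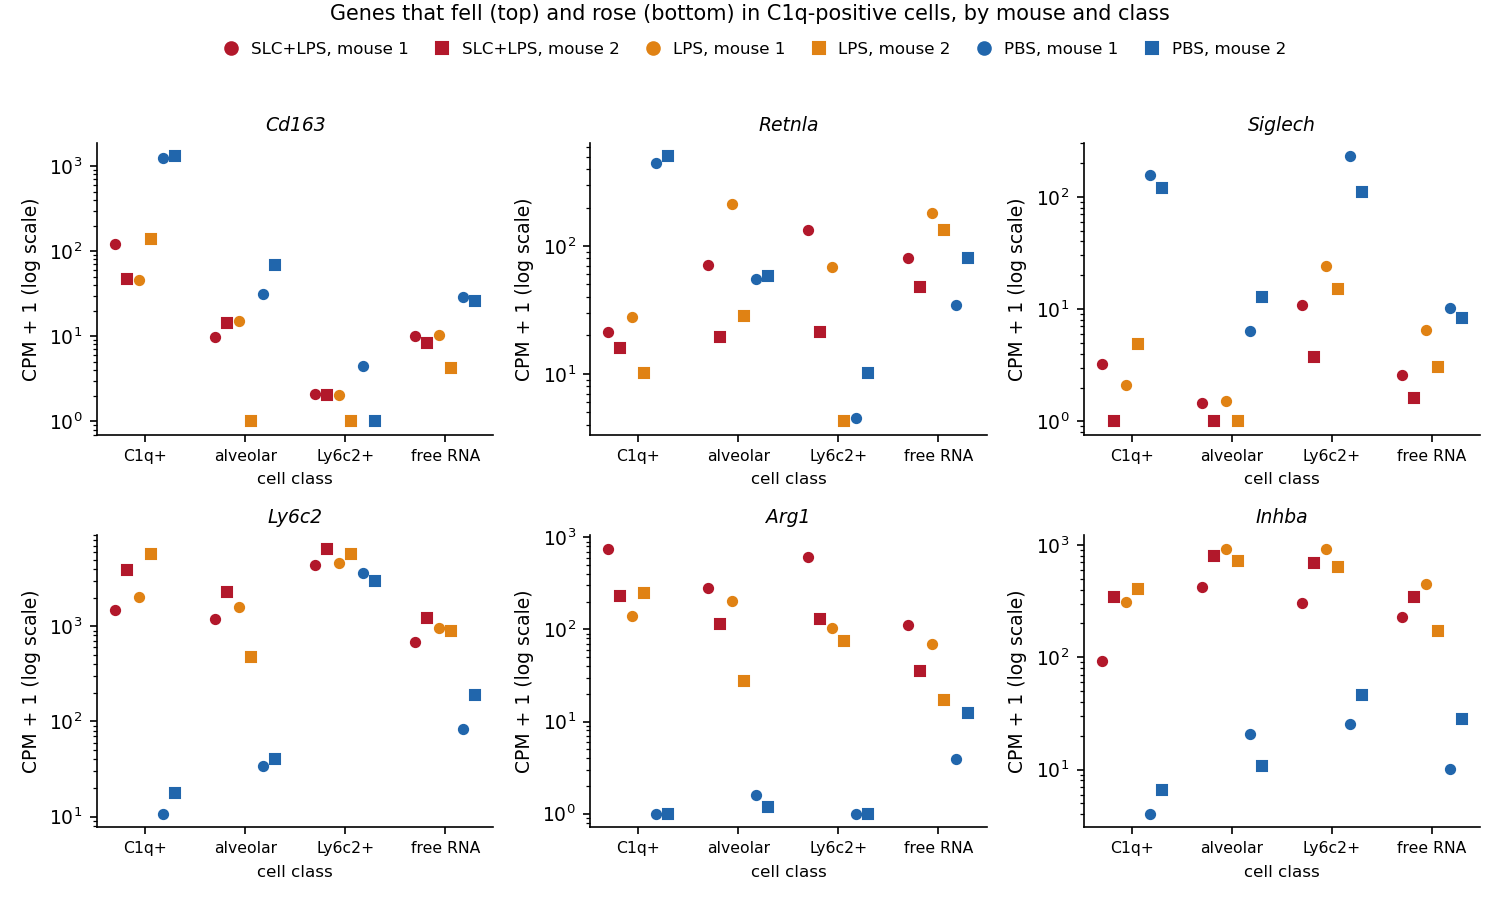
CPM plus 1 of Cd163, Retnla and Siglech, which fell, and of Ly6c2, Arg1 and Inhba, which rose, on a log scale in C1q-positive cells, alveolar macrophages, Ly6c2-positive cells and free RNA, 1 point a mouse. In C1q-positive cells Siglech stands at 0 to 3.88 CPM in treated mice and at 156 and 120 CPM in PBS mice.

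The genes with the steepest falls are given one by one. Retnla, a secreted marker of alternative activation, stood at 20.3 and 14.8 CPM in SLC+LPS mice, 27.0 and 9.06 CPM in LPS mice and 442 and 503 CPM in PBS mice, and no treated mouse came near PBS (log2 -4.70 ± 0.47 with edgeR adjusted p = 0.00512, and -4.63 ± 0.46 with edgeR adjusted p = 0.00426). Siglech, a sialic acid-binding lectin best known from plasmacytoid dendritic cells, stood at 2.26 and 0 CPM in SLC+LPS mice, 1.11 and 3.88 CPM in LPS mice and 156 and 120 CPM in PBS mice (log2 -6.87 ± 0.74 with edgeR adjusted p = 0.00702, and -5.71 ± 0.64 with edgeR adjusted p = 0.00684). Pla2g2d, a secreted phospholipase, stood at 2.82 and 12.2 CPM, 5.91 and 6.47 CPM, and 237 and 216 CPM in the same order, and fell by 4.81 and 5.10 on the log2 scale. The C-type lectin gene Cd209b stood at 0 and 2.04 CPM in SLC+LPS mice, 0 and 0.431 CPM in LPS mice and 47.7 and 55.1 CPM in PBS mice. It fell by 5.45 ± 0.76 in SLC+LPS mice (edgeR adjusted p = 0.0107), and in LPS mice PBS members held 256 times as much (counting interval 45.2 to 10179, edgeR adjusted p = 0.00724). Cd209a, found on dendritic cells and monocytes, stood at 1.13 and 0 CPM in SLC+LPS mice, 0 and 1.29 CPM in LPS mice and 32.4 and 106 CPM in PBS mice, and fell in both. Ifnb1, interferon beta, stood at 0 and 3.57 CPM in SLC+LPS mice, 4.06 and 7.76 CPM in LPS mice and 109 and 47.1 CPM in PBS mice, and fell in SLC+LPS mice (log2 -5.29 ± 0.87, edgeR adjusted p = 0.0195). Scgb3a2, a secretoglobin of airway cells, was also among the 6 steepest falls in LPS mice, and the free RNA estimate came to 100% of its level in members of PBS mice.

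Chemokine genes gave few calls. Of 21 tested, Ccl22 alone fell in SLC+LPS mice (log2 -3.65), none passed in LPS mice, and the medians were -0.75 and -0.78. With 2.8% of all genes lower in SLC+LPS mice, 1 call does not set the list apart. Ccl2, which attracts monocytes, stood at 363 and 444 CPM in SLC+LPS mice, 448 and 1672 CPM in LPS mice and 2459 and 2046 CPM in PBS mice. Cxcl9, induced by interferon gamma, stood at 135 and 691 CPM, 466 and 196 CPM, and 25.7 and 3.20 CPM in the same order, with an adjusted p of 0.0528 by edgeR in LPS mice. Of 21 interferon-stimulated genes, 1 rose in SLC+LPS mice and 3 in LPS mice, beside 2.27% and 2.89% of all genes. Their medians were 0.87 and 2.66. The guanylate-binding protein gene Gbp2 (4.06) and Iigp1 (3.89) were among the rises in LPS mice. Gbp2 stood at 143 and 1021 CPM in SLC+LPS mice, 892 and 476 CPM in LPS mice and 41.6 and 44.7 CPM in PBS mice.

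Division, adrenergic and glucocorticoid genes completed the lists. With 5.07% of all genes called in SLC+LPS mice and 6.22% in LPS mice, a single call does not set a list apart. Of 15 cell division genes, Mki67 alone rose, by 1.63 in either comparison, at 134 and 153 CPM in SLC+LPS mice, 126 and 155 CPM in LPS mice and 44.0 and 52.7 CPM in PBS mice. Alveolar macrophages held it at 144 and 159 CPM, 139 and 210 CPM, and 49.8 and 84.1 CPM in the same order. Of 15 adrenergic and cAMP genes, Adrb1 alone was called, lower in both (-1.96 and -3.33), and the free RNA estimate came to 64% of its level in members of PBS mice. Of 12 glucocorticoid genes, 1 fell in SLC+LPS mice and 3 in LPS mice, where the metallothionein gene Mt1 fell by 2.75. Among 16 immediate early genes, Atf3 alone was called, lower by 1.58 and 1.65 on the log2 scale.

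Marker genes of other cells were followed as lists. Beside them, 5.07% of all genes were called in SLC+LPS mice and 6.22% in LPS mice. Of 13 neutrophil genes, 5 rose and 1 fell in SLC+LPS mice, and 4 rose and 1 fell in LPS mice. Their sum was 1802 and 2871 CPM in members of SLC+LPS mice, 2248 and 2038 CPM in LPS mice and 859 and 699 CPM in PBS mice, below that in free RNA in every mouse (2622 to 17695 CPM). It came to 23.3% and 35.4%, 25.8% and 11.5%, and 28.6% and 26.7% of the free RNA level in the same order. The 18-gene estimate of free RNA in members was 10.9% and 23.4%, 17.7% and 4.79%, and 22.4% and 28.9%. The sum thus exceeded that estimate in every treated mouse and in PBS mouse 1, and lay below it in PBS mouse 2. The reason was not tested. Of 11 dendritic cell genes, 3 fell in SLC+LPS mice and 2 in LPS mice. The list of 13, of which 11 to 13 were detected, summed to 227 and 285 CPM in members of SLC+LPS mice, 241 and 357 CPM in LPS mice and 850.1 and 1172 CPM in PBS mice, above that in free RNA in every mouse (134 to 429 CPM). Of 10 fibroblast genes, 5 fell in either comparison, with sums of 482 and 546 CPM, 600 and 148 CPM, and 1410 and 2037 CPM in SLC+LPS, LPS and PBS mice. Cd4, which some macrophages carry, fell by 3.42 and 3.41 on the log2 scale. Of 8 alveolar macrophage genes outside the rule, 2 rose in SLC+LPS mice and 1 fell in LPS mice. Among 3 B cell genes none was called.

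SLC+LPS against LPS called 0 of 9610 genes (0%) by edgeR. At an unadjusted p under 0.05 there were 363 genes, DESeq2 called 5, and leaving out LPS mouse 1 gave 51 by edgeR. The genes with the smallest p are given as values. Il12b, a chain of interleukins 12 and 23, stood at 20.3 and 14.3 CPM in SLC+LPS mice and 103 and 65.5 CPM in LPS mice (log2 -2.31 ± 0.35, edgeR adjusted p = 0.452). Il6 stood at 53.0 and 34.1 CPM in SLC+LPS mice and 127 and 289 CPM in LPS mice (-2.31 ± 0.44, edgeR adjusted p = 0.951). The class I gene H2-T23 stood at 23.7 and 20.9 CPM in SLC+LPS mice and 79.0 and 211 CPM in LPS mice (-2.75 ± 0.49, edgeR adjusted p = 0.951). These 3 genes were lower in SLC+LPS mice, and they were picked for their small p. The inhibitory receptor gene Cd300a (-1.75 ± 0.37) and the Tnf family ligand gene Tnfsf9 (-1.43 ± 0.32) were lower too. Mid1 was higher in SLC+LPS mice, at 78.4 and 93.3 CPM against 20.7 and 9.92 CPM in LPS mice, and the free RNA estimate came to 99.7% of its level. All 21 interferon-stimulated genes had negative log2 fold changes, with a median of -1.23 beside 0.0032 over all genes, and none was called. Their sum was 940 and 5243 CPM in SLC+LPS mice and 4520 and 8768 CPM in LPS mice. SLC+LPS mouse 1 was the lowest of the 4 and LPS mouse 2 the highest, and the other 2 lay between them.

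The change with treatment was set against that of 2 other classes of the same lungs. Alveolar macrophages, 4892 cells with at least 3 of the 10 alveolar genes, differed from the members in their change at 212 of 12420 genes (1.71%) in SLC+LPS against PBS and at 252 (2.03%) in LPS against PBS. Ly6c2-positive cells, 3062 cells with at least 2 Ly6c2 UMIs, a UMI of Ccr2, Csf1r or Ms4a4c and at most 1 C1q UMI, differed at 228 of 10552 genes (2.16%) and 154 (1.46%). Retnla was one of them: it stood at 70.4 and 18.5 CPM in alveolar macrophages of SLC+LPS mice, 212 and 27.2 CPM in those of LPS mice and 54.2 and 57.1 CPM in those of PBS mice. Its log2 change differed between members and alveolar macrophages by -4.34 ± 0.53 (edgeR adjusted p = 0.0152) in SLC+LPS against PBS and by -5.69 ± 0.52 (edgeR adjusted p = 0.00442) in LPS against PBS. In the whole libraries, taken without any gate, Cd163 stood at 12.4 and 10.7 CPM in SLC+LPS mice, 9.71 and 8.71 CPM in LPS mice and 105 and 113 CPM in PBS mice. It fell by 2.87 ± 0.22 on the log2 scale in SLC+LPS mice (edgeR adjusted p = 0.0133) and by 3.19 ± 0.23 in LPS mice (edgeR adjusted p = 0.0159), where 2215 (12.4%, with 5.2% higher and 7.17% lower) and 1404 (7.84%, with 3.96% higher and 3.88% lower) of 17900 genes were called. Of 17 Lyve1-side genes in the libraries, 2 fell in SLC+LPS mice and 4 in LPS mice, and none rose. Of 22 macrophage genes, 8 rose in SLC+LPS mice and 6 in LPS mice, and none fell. Adgre1 was among them (log2 1.62 and 1.29).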

How the data were processed

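Lungs of 6 mice were digested and sequenced on the BD Rhapsody system, per the labels' protocols. The authors deposited raw UMI counts per gene and barcode, and the build was GRCm39, per the submitters' processing notes. The sources used here do not name an aligner or counter. The members and gene lists were chosen with earlier results of these data known. Counts were summed per mouse over members and tested with edgeR 4.0.16 (TMM, filterByExpr, robust quasi-likelihood, limma 3.58.1, R 4.3.3), a single fit of the 6 libraries by group. Differences between cell classes were tested as an interaction with library as a block. With 2 mice a group, the edgeR p-values rest on a spread pooled over the mice of all 3 groups. Mice outside a comparison therefore also bear on its p-values. The spread was unequal between groups. The chi-square per degree of freedom between the 2 mice of a group, which also grows with depth, was 18.33 in SLC+LPS, 25.95 in LPS and 3.35 in PBS members. Shares were tested with exact permutations (scipy 1.17.1). Binomial and counting intervals are exact and cover counting error only. Free RNA was read from barcodes with at least 10 and under 100 UMIs. No doublet caller filtered the members. Leaving out the top 6% of Scrublet scores (scanpy 1.11.5) was an alternative, and so was DESeq2 1.42.0. Named genes were the 6 largest rises and 6 largest falls among calls whose mice did not overlap and whose higher mean reached 50 CPM, leaving out predicted, ribosomal and receptor segment genes, and up to 3 members of each list. Other genes are named by their role in a list, some after their values were seen, and a few genes of the lists are not reported here. On simulated counts for LPS against PBS (9174 genes, 200 changed), the fit over members recovered 58% of 4-fold and 6% of 2-fold changes with 1 false call. The fit between classes (9605 genes) recovered 8% of 4-fold and 1% of 2-fold changes with 0 false calls, so uncalled genes can hold such changes. Both simulations drew every library with the same spread, unlike these data. Their rates of recovery and of false calls therefore need not hold here. Replicate numbers did not pair the mice (correlations of same-numbered deviations 0.0586 for LPS with PBS, -0.0159 for SLC+LPS with PBS and -0.103 for SLC+LPS with LPS).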

Additional observations from a re-analysis of the deposited data

Results flagged for a closer look

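Each gene here changed differently with treatment in C1q-positive macrophages than in another class of the same lungs, by the interaction term of the fit (edgeR adjusted p under 0.05 in every case). Values are the log2 fold change in C1q-positive macrophages minus that in the other class.

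Against alveolar macrophages, 3 genes rose more in the members. F10, coagulation factor X, differed by 4.80 in SLC+LPS against PBS and by 4.26 in LPS against PBS. It stood at 124 and 145 CPM in members of SLC+LPS mice, 116 and 106 CPM in those of LPS mice and 6.73 and 6.39 CPM in those of PBS mice, while alveolar macrophages held 134 and 161 CPM, 125 and 227 CPM, and 203 and 233 CPM. Fpr1, a receptor for formyl peptides of bacteria, differed by 4.13 and 4.10, and Sirpb1c by 3.31 and 3.62. Retnla differed by -4.34 and -5.69. Ccl9 differed by -3.10 and Dcbld2 by -3.23 in LPS against PBS. Mmp9 differed by -3.05 and Cd38 by -3.02 in SLC+LPS against PBS. Cd38, an enzyme that consumes NAD, stood at 279 and 300 CPM in members of SLC+LPS mice and 130 and 113 CPM in those of PBS mice, and at 152 and 162 CPM in alveolar macrophages of SLC+LPS mice and 7.86 and 9.54 CPM in those of PBS mice.

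Against Ly6c2-positive cells, of which PBS mice gave 77 and 44, Saa3 differed by 7.81 in SLC+LPS against PBS and by 7.72 in LPS against PBS. In those cells Saa3 stood at 3560 and 3327 CPM in SLC+LPS mice, 3577 and 1451 CPM in LPS mice and 176 and 9.05 CPM in PBS mice. Members held 4055 and 2609 CPM, 1916 and 2587 CPM, and 0.612 and 0 CPM in the same order. The 2 classes thus overlapped in treated mice and were apart in PBS mice. In LPS against PBS, Tarm1 differed by 7.64, Plac8 by 4.63, Kazn by -9.31, P2ry13 by -4.19 and Ccl2 by -4.15. In SLC+LPS against PBS, Msantd3 differed by 6.64, Met by 6.12, Abcc3 by -8.88, Rnf180 by -8.46 and Ms4a14 by -8.36. Tarm1 had no UMI in members of PBS mice, and Kazn, Abcc3, Rnf180 and Ms4a14 had none in Ly6c2-positive cells of PBS mice, so these 5 fitted values depend on the fit's prior count and are no bounds. In members of PBS mice Msantd3 stood at 0.612 and 0.799 CPM and Met at 1.83 and 0 CPM. Their differences, like that of Saa3, rest on a level near 0 there. Ccl2 stood at 448 and 1672 CPM in members of LPS mice and 2459 and 2046 CPM in those of PBS mice, and at 188 and 252 CPM in Ly6c2-positive cells of LPS mice and 45.7 and 27.2 CPM in those of PBS mice.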

How the results depend on the processing

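Over the single genes and list members named, 2180 results under an alternative kept their direction and call, 641 lost the call, 55 gained one and 0 changed sign. Calls in members against PBS moved by over 1.5 times under these settings, given for SLC+LPS first and LPS second: no low-count filter (936 and 1027 genes), members without a Ly6c2 UMI (33 and 158) and genes not prone to free RNA (213 and 244). For SLC+LPS alone, at least 8 C1q UMIs gave 310 and leaving out cells with neutrophil genes 204. Leaving out 1 mouse gave 1 to 1130 and 1 to 948. SLC+LPS against LPS gave 5 by DESeq2, 6 with no filter, 1 without Ly6c2 cells and 0 to 51 with a mouse left out. A replicate block, although the numbers did not pair the mice, gave 370, 505 and 0, and the crossed pairing, chosen after seeing the data, 647, 738 and 0. For whole libraries the counts were 4009, 3097 and 17 by DESeq2 and 486 and 303 with a replicate block. Scaling by library size alone gave 2292 in LPS against PBS, 518 higher and 1774 lower (709 and 695 by TMM), and 598 higher and 2533 lower in SLC+LPS against PBS (931 and 1284 by TMM), as it moved the median log2 fold change of all genes to -0.38 in SLC+LPS against PBS and -0.39 in LPS against PBS. Leaving out 1 mouse gave 0 to 4950 and 0 to 2862. Between classes, leaving out 1 mouse gave 26 to 1174 and 37 to 1227 against alveolar macrophages, and 4 to 1064 and 6 to 904 against Ly6c2-positive cells. Library-size scaling split the calls between classes into 130 higher and 58 lower and 135 and 76 against alveolar macrophages (104 and 108, 111 and 141 by TMM), and 137 and 90 and 117 and 48 against Ly6c2-positive cells (94 and 134, 65 and 89 by TMM), with medians of all genes at 0.19 and 0.22 against alveolar macrophages. The log2 ratio of shares turned to 0.83 and 0.73 against PBS with all members set over cells without neutrophil genes, a denominator chosen after seeing the data. For SLC+LPS over LPS it turned to 0.0936 there, to 0.21 under the stricter cell filter, and ran from -0.50 to 0.13 with a mouse left out. The cause was not tested. Depth limits shares of cells with a UMI, and 2 mice a group limit every test.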

Other observations

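The few Lyve1-side cells of treated mice carried genes of the treated lung. Their Saa3 level was 4239 and 3457 CPM in SLC+LPS mice and 1446 and 198 CPM in LPS mice, against 1.08 and 0 CPM in PBS mice. Il1b stood in them at 2775 and 944 CPM in SLC+LPS mice, 1905 and 2853 CPM in LPS mice and 627 and 535 CPM in PBS mice, below the other members of the same mouse in all 6 mice. Mrc1 stood at 1702 and 1854 CPM in SLC+LPS mice, 1138 and 2060 CPM in LPS mice and 3125 and 2895 CPM in PBS mice, above the other members in every mouse. Ly6c2 UMIs were found in 43.8% and 91.7% of Lyve1-side cells in SLC+LPS mice, 85.7% and 13.5% in LPS mice and 4.04% and 6.04% in PBS mice. The treated values rest on 12 to 37 cells a mouse and were not tested.

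Genes of lipid-associated and homeostatic macrophages gave values without a call. Spp1, osteopontin, stood at 377 and 72.4 CPM in SLC+LPS mice, 155 and 132 CPM in LPS mice and 53.8 and 26.4 CPM in PBS mice, and all 4 treated mice were higher than both PBS mice (log2 2.49 ± 0.72 with edgeR adjusted p = 0.0924 for SLC+LPS over PBS, and 1.91 ± 0.71 with edgeR adjusted p = 0.161 for LPS over PBS). Apoe, a lipid carrier, stood at 1089 and 1115 CPM in SLC+LPS mice, 1100 and 278 CPM in LPS mice and 1580 and 1379 CPM in PBS mice. LPS mouse 2 was the lowest by far, and it was also the lowest in alveolar macrophages (161 and 248 CPM in SLC+LPS mice, 267 and 7.59 CPM in LPS mice, 107 and 146 CPM in PBS mice) and in Ly6c2-positive cells (239 and 247 CPM, 211 and 24.2 CPM, and 183 and 190 CPM in the same order). Trem2, a lipid-sensing receptor, stood at 179 and 141 CPM in members of SLC+LPS mice, 148 and 68.6 CPM in those of LPS mice and 93.6 and 99.9 CPM in those of PBS mice. Il10, an anti-inflammatory cytokine, stood at 151 and 397 CPM in SLC+LPS mice, 315 and 813 CPM in LPS mice and 356 and 199 CPM in PBS mice, with overlapping groups.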
